A study of Mus musculus with 18 samples.

Results

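The mouse genes for the pyruvate dehydrogenase kinases (Pdk1, Pdk2, Pdk3 and Pdk4), for the catalytic subunits of the pyruvate dehydrogenase phosphatases (Pdp1 and Pdp2) and for the regulatory subunit of the phosphatase (Pdpr) were taken by name and found by matching the Ensembl identifiers of the count table to gene symbols. They are 7 of the 43430 genes in the table, and 7 of 7 passed the filter on low counts that left 13596 genes for testing. RNA was sequenced from isolated quadriceps myofibers of 18 C57BL/6 mice (C57BL/6J in the study's methods), with 1 library per mouse and 3 libraries in each of 6 groups. Males and females, aged 10 weeks at the start, were injected i.p. every day for 4 weeks. Vehicle groups received DMSO in PBS. Daily groups received prednisone, a synthetic glucocorticoid, at 1 mg/kg. Weekly groups received the same dose on 1 day of each week and vehicle on the other days, 5 prednisone injections in all, with the last given 2 days before sacrifice, so that weekly and daily groups also differed in the time since the last dose. Levels are given as CPM, counts scaled to the TMM-adjusted library size, and differences as log2 fold changes ± SE from edgeR's quasi-likelihood test, with a Benjamini-Hochberg adjusted p under 0.05 called.

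Pyruvate dehydrogenase turns pyruvate into acetyl-CoA inside mitochondria and so commits glucose carbon to oxidation. The kinases phosphorylate the E1 alpha subunit (Pdha1) and switch the complex off, and the phosphatases remove the phosphate and switch it on. In skeletal muscle, Pdk4 is the kinase known to be induced by fasting, fatty acids and glucocorticoids, Pdk2 is the widely expressed form, Pdk1 is known as a target of hypoxia signaling, and Pdk3 is mostly found in other tissues. Pdp1 is the calcium-stimulated phosphatase of muscle, Pdp2 is the form known to respond to insulin and starvation, and Pdpr holds the phosphatase back by lowering its sensitivity to magnesium.

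The RNA was that of muscle fibers, with other cells carried along. Total counts ranged from 10506661 to 14686654 per library. The summed CPM of 6 myofiber markers (Acta1, Ckm, Ttn, Tnnt3, Mylpf and Ryr1) lay between 67830 and 118500. The summed CPM of 10 adipocyte markers was 563 to 1117 in the vehicle libraries and 1269 to 8564 in the treated ones, and it was above every vehicle library in each of the treated libraries. Mitochondrially encoded genes took 11.7% to 36.4% of the counts. Female weekly replicate 1 stood apart in slow-fiber markers, with a summed CPM of 1685 against at most 320 in the other libraries. In such bulk samples, fewer cells of a type and less RNA per cell cannot be told apart.

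The genes lie on separate chromosomes apart from Pdp2 and Pdpr, which are both on chromosome 8. In mm10, Pdk1 (ENSMUSG00000006494) spans chr2:71873224-71903858 on the plus strand, Pdk2 (ENSMUSG00000038967) chr11:95026258-95041354 on the minus strand, Pdk3 (ENSMUSG00000035232) chrX:93764607-93832201 on the minus strand and Pdk4 (ENSMUSG00000019577) chr6:5483351-5496309 on the minus strand. Among the phosphatase genes, Pdp1 (ENSMUSG00000049225) spans chr4:11958184-11966452 on the minus strand, Pdp2 (ENSMUSG00000048371) chr8:104591468-104596836 on the plus strand and Pdpr (ENSMUSG00000033624) chr8:111094630-111137074 on the plus strand. RefSeq promoters of GRCm38.p6 (250 bases before to 50 after each start) were given for 6 of the 7 genes, with 2 each for Pdk1 and Pdk2 and none for Pdp1. No window held the glucocorticoid response element (AGAACA, any 3 bases, TGTTCT, in 0.00913% of 32851 promoters), the forkhead motif TGTTTAC (3.65%), the PPAR repeat (AGGTCA, any base, AGGTCA, 0.0396%) or the estrogen-related receptor motif TCAAGGTCA (0.423%), on either strand. The hypoxia response core ACGTG, held by 19.6% of promoters, stood in the windows of Pdk2, Pdk3, Pdp2 and Pdpr. In Pdk2, Pdp2 and Pdpr it was part of the E-box core CACGTG, a palindrome that contains ACGTG on both strands and that 7.15% of promoters hold. The E-box core was looked for after the other matches had been seen. The bases before the annotated genes are shown for these 3, with the E-box core in capitals, because it is the longest of the searched motifs that they share.
Pdpr, chr8:111094495-111094629, plus strand: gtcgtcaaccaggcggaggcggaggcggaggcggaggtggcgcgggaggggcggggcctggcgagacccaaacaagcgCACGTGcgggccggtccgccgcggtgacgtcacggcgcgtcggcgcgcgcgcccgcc
Pdp2, chr8:104591222-104591467, plus strand: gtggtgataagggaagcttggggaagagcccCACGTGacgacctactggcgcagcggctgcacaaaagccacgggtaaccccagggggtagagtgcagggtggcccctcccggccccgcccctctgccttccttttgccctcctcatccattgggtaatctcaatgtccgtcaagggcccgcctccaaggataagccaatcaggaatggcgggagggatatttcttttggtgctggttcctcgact
Pdk2, chr11:95041372-95041621, minus strand: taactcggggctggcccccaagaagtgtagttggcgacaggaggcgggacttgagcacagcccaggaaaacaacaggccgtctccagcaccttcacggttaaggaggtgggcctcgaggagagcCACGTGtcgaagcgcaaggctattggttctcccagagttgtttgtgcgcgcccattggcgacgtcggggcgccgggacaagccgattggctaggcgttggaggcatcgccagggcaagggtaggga
The E-box core began 172 bases before the RefSeq start in Pdpr, 219 bases before it in Pdp2 and 126 bases before it in Pdk2. Of these 3 genes, only Pdpr passed the test in any comparison with vehicle.

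Pdk4 was the most abundant of the 7 transcripts and Pdk2 the next. Per kilobase of exon, the median over 18 libraries was 353 CPM for Pdk4, with a range of 111 to 606, and 108 CPM for Pdk2, with a range of 83.5 to 152. Pdp1 (5.70), Pdpr (5.31) and Pdk1 (5.18) followed with medians that lay closer together than their ranges, which overlapped. Pdp2 had a median of 1.10 CPM per kilobase and Pdk3 of 0.477, and their ranges overlapped too. Within each library Pdk4 exceeded Pdk2 per kilobase, by 1.33-fold to 5.50-fold. With the longest coding transcript as the length, the ratio fell below 1 in male weekly replicate 1 (0.974), female vehicle replicate 3 (0.948) and female weekly replicate 2 (0.951). Pdk3 rested on 8 to 28 counts per library and Pdp2 on 13 to 136, so that counting error is large for both, whereas Pdk4 had 4071 to 25139 counts.

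**Figure D1:**
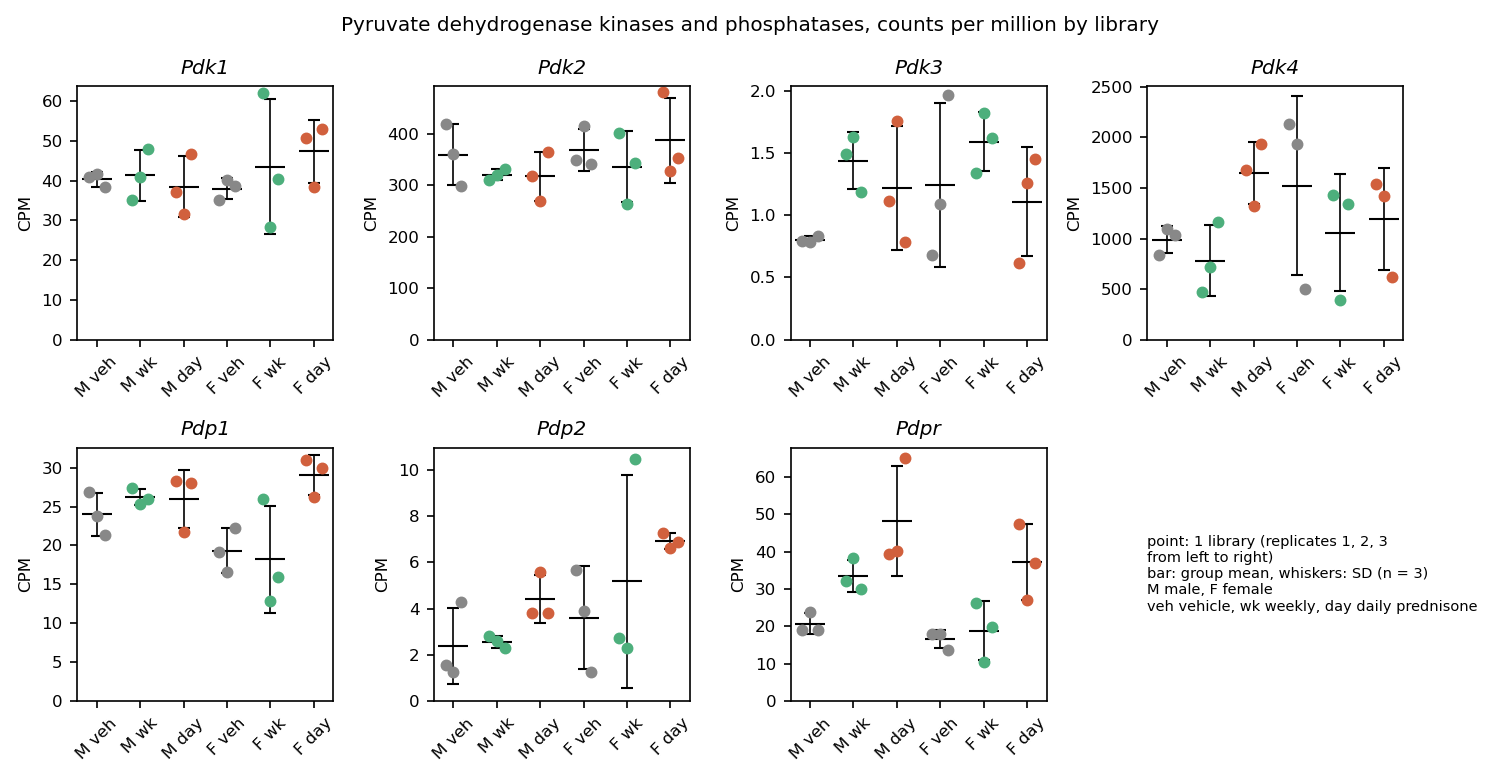
Each panel plots 1 gene, with CPM on the y axis (starting at 0) and the 6 groups on the x axis. Points are libraries, bars group means and whiskers the SD (n = 3). Pdpr was between 39.3 and 65.2 CPM in daily males against 19.1 to 23.9 in vehicle males, and Pdk4 ranged widely within the female groups.

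Pdpr, the regulatory subunit of the phosphatase, was the member that rose with daily prednisone. In males it stood at 19.1, 23.9 and 19.2 CPM with vehicle and at 39.3, 40.2 and 65.2 CPM with daily prednisone. The groups did not overlap, and daily replicate 3 was the highest of all 18 libraries. The log2 fold change was 1.21 ± 0.28 (95% interval 0.61 to 1.82, edgeR adjusted p = 0.022), and Pdpr was the 1 of 7 members called, where 6.46% of all tested genes were called. In females it stood at 17.9, 18.04 and 13.8 CPM with vehicle and at 47.5, 27.2 and 36.9 CPM with daily prednisone. These groups did not overlap either, yet the log2 fold change of 1.17 ± 0.29 (95% interval 0.56 to 1.78) missed the threshold with an edgeR adjusted p of 0.0739. No member was called in daily females, where edgeR called 0.382% of genes. Of the members, DESeq2 called Pdpr there, with an adjusted p of 0.00879. In that comparison DESeq2 called 530 genes, against 52 by edgeR. Over both sexes, Pdpr was 2.28-fold higher with daily prednisone (log2 fold change 1.19 ± 0.20, 95% interval 0.76 to 1.62, edgeR adjusted p = 0.00185), again the 1 member called, beside 15% of genes. Of the 7 members 6 were higher over both sexes, with a median log2 fold change of 0.24 against 0.02 over all tested genes. The response of Pdpr did not differ detectably between the sexes, with a female minus male difference of -0.05 ± 0.40 on the log2 scale (95% interval -0.90 to 0.80).

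The call in males depended on single libraries. Leaving out vehicle replicate 1, vehicle replicate 3, daily replicate 2 or daily replicate 3 gave log2 fold changes of 0.97 to 1.33 with edgeR adjusted p from 0.0531 to 0.0928, whereas over both sexes Pdpr stayed called whichever library was left out. Removing each library's trend on gene length and GC content also ended the call in males (1.12, adjusted p = 0.0731) but not over both sexes. Adipocyte markers moved with it, and Adipoq, which defines fat cells, went from 4.13 to 12.2 CPM in the vehicle libraries to 27.3 to 203 in the daily ones. Of the 10 adipocyte markers, 8 were called higher with daily prednisone over both sexes, and their summed CPM was 563 to 1083 in vehicle males and 1437 to 2965 in daily males, and 981 to 1117 in vehicle females and 1552 to 6642 in daily females. With the adipocyte score as a covariate, Pdpr remained higher, by 0.96 in males and 0.90 over both sexes on the log2 scale, but was not called (edgeR adjusted p = 0.134 and 0.137). That fit called 13 genes over both sexes in place of 2033. Because every daily library had a higher adipocyte sum than every vehicle library, it cannot fully tell the adipocyte score and the treatment apart. Other marker lists moved too. Over both sexes 4 of 5 blood markers were called lower (list median -0.63), as were 2 of 6 myofiber markers, Tnnt3 and Mylpf (median -0.37). The myofiber list was split, with 4 lower and 2 higher, the latter without a call. Mean Ttn went from 6169 to 8533 CPM in males and from 5648 to 8564 in females. Mean Ryr1 went from 2894 to 3469 CPM in males and from 2756 to 3599 in females. Of 6 macrophage markers 1, Cd68, was called higher (median 0.08). In daily males, where Pdpr was called, Cd68 also rose. The part of these lists in the result was not tested. The share of counts on mitochondrially encoded genes overlapped between vehicle and daily males, and was 21.1% to 26.3% in vehicle females against 11.7% to 18.3% in daily females. With these genes left out of the scaling, Pdpr stayed called in males and over both sexes. In replicate order, the summed adipocyte CPM was 1269, 2295 and 1799 in weekly males, 2965, 1437 and 1450 in daily males, 5702, 1293 and 8564 in weekly females and 1552, 2531 and 6642 in daily females. The library with the highest adipocyte sum of its group had the highest Pdpr in weekly males, the lowest in daily males and the middle value in weekly and daily females. The library with the lowest adipocyte sum had the lowest Pdpr in weekly females, 10.4 CPM and the lowest of the series, the highest in daily females and the middle value in weekly and daily males. The sums were 563, 845 and 1083 in vehicle males and 1117, 981 and 1048 in vehicle females. There the library with the highest sum had the middle Pdpr value in each sex. The library with the lowest sum had the highest Pdpr in vehicle females. In vehicle males it had the lowest, 19.14 CPM against 19.16 in replicate 3. Pdpr overlaps the antisense gene 9430091E24Rik, with 169 shared exon bases. The antisense gene held 30 to 122 counts per library, where Pdpr held 109 to 666, and it was higher with daily prednisone over both sexes by 0.62 ± 0.18 on the log2 scale (edgeR adjusted p = 0.0262). The strand setting of the counting is not given in the sources used here, so reads of the shared bases cannot be told apart.

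**Figure D2:**
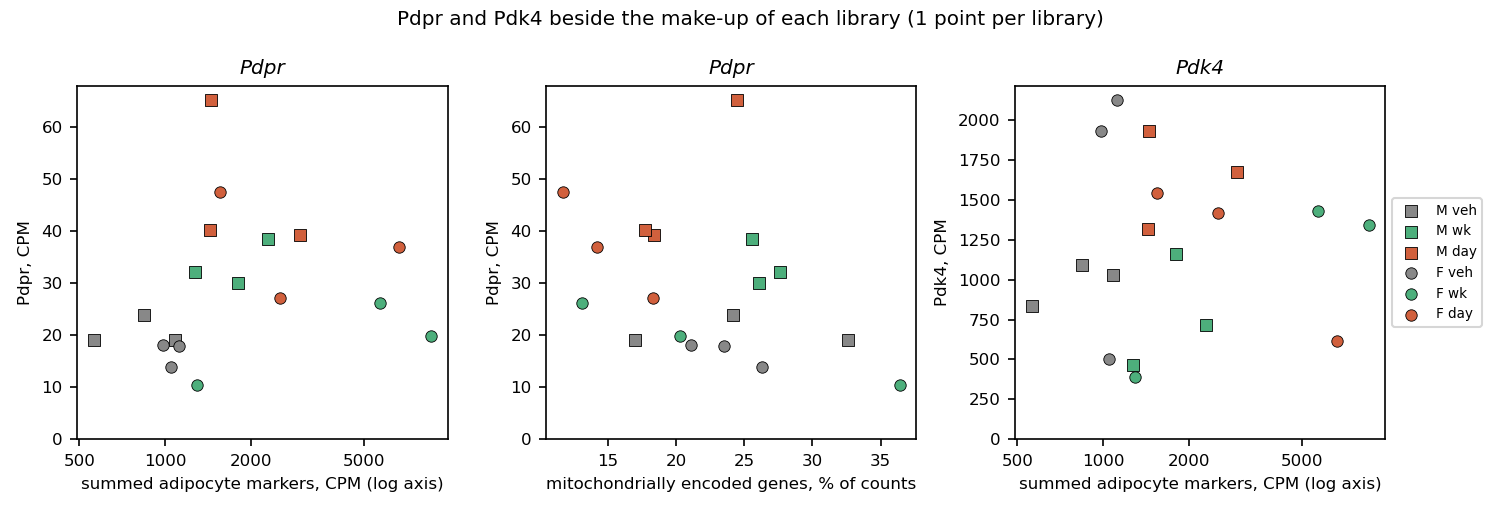
The left and right panels plot Pdpr and Pdk4 CPM against the summed CPM of 10 adipocyte markers on a log axis, and the middle panel plots Pdpr against the percent of counts from mitochondrially encoded genes. Each point is 1 library, colored by treatment, with squares for males and circles for females. The 3 libraries with the most adipocyte signal, female weekly replicate 3 (8564), female daily replicate 3 (6642) and female weekly replicate 1 (5702), held 19.8, 36.9 and 26.2 CPM of Pdpr.

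The catalytic phosphatase subunits were also higher in daily females, although neither passed the test. Pdp1 stood at 19.1, 16.5 and 22.3 CPM in vehicle females and at 31.0, 26.2 and 29.9 CPM in daily females. The groups did not overlap, and the log2 fold change was 0.59 ± 0.20 (95% interval 0.16 to 1.01, edgeR adjusted p = 0.146). In males Pdp1 was 26.9, 23.8 and 21.3 CPM with vehicle and 28.2, 21.7 and 28.0 CPM with daily prednisone, with overlapping groups and a log2 fold change of 0.11 ± 0.20. Over both sexes the difference was 0.35 ± 0.14 (95% interval 0.05 to 0.65, edgeR adjusted p = 0.113). A fit of those 4 groups alone called it (adjusted p = 0.0301), and called 2386 genes against 2033 in the fit of all groups.

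Pdp2 varied most of the 7 genes, by 8.36-fold between the lowest and highest library. It was 1.58, 1.27 and 4.27 CPM in vehicle males and 3.82, 5.60 and 3.82 CPM in daily males. In females it was 5.67, 3.91 and 1.25 CPM with vehicle and 7.30, 6.61 and 6.89 CPM with daily prednisone. The female groups did not overlap and the male groups did. Pdp1, Pdp2 and Pdpr were the 3 members whose daily female libraries all lay above the vehicle ones, as did 12.9% of tested genes. The log2 fold changes of Pdp2 were 0.91 ± 0.58 in males and 0.93 ± 0.55 in females (edgeR adjusted p = 0.371 and 0.401). Over both sexes the difference was 0.92 ± 0.40 (95% interval 0.07 to 1.77, edgeR adjusted p = 0.135).

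Pdk4, the kinase known as a glucocorticoid target, was higher in daily than in vehicle males without passing the test. It stood at 838, 1095 and 1032 CPM in vehicle males and at 1678, 1321 and 1932 CPM in daily males. The groups did not overlap. The log2 fold change was 0.73 ± 0.53 (95% interval -0.40 to 1.87, edgeR adjusted p = 0.438). That SE rests on 1 spread estimated over all 6 groups. The SD of Pdk4 was 134 CPM in vehicle males, 307 in daily males and 887 in vehicle females. A fit of the male vehicle and male daily groups alone called Pdk4, at 0.73 with an edgeR adjusted p of 0.0309. That fit called 1530 genes, against 878 in the fit of all groups. In females the vehicle libraries held 2129, 1932 and 503 CPM and the daily libraries 1543, 1419 and 615 CPM. Replicate 3 was far below the other two libraries in both groups, the groups overlapped, and the log2 fold change was -0.35 ± 0.53 (95% interval -1.48 to 0.78, edgeR adjusted p = 0.772). The female minus male difference of the daily response was -1.09 ± 0.75 on the log2 scale (95% interval -2.68 to 0.51, edgeR adjusted p = 0.889). No gene was called for that difference (0% of genes, 638 at an unadjusted p under 0.05, 2 by DESeq2). Pdk4 was the 1 kinase among the 2 members whose male daily libraries all lay above the vehicle libraries, and 16.4% of tested genes did the same.

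Pdk2, Pdk1 and Pdk3 showed no called difference with daily prednisone. Pdk2 stood at 418, 361 and 299 CPM in vehicle males and 318, 269 and 364 CPM in daily males, with a log2 fold change of -0.18 ± 0.19 (95% interval -0.58 to 0.21). In females Pdk2 was 349, 414 and 342 CPM with vehicle and 482, 328 and 353 CPM with daily prednisone, with a log2 fold change of 0.07 ± 0.19 (95% interval -0.32 to 0.47). The groups overlapped in both sexes, and Pdk2 had the narrowest range of the 7 genes, 1.82-fold over 18 libraries. Pdk1 averaged 40.3 ± 1.79 CPM (SD, n = 3) in vehicle males, 38.5 ± 7.64 in daily males, 38.0 ± 2.60 in vehicle females and 47.4 ± 7.93 in daily females. Its log2 fold changes were -0.07 ± 0.22 in males and 0.32 ± 0.22 in females. Pdk3 stayed between 0.614 and 1.97 CPM in all 18 libraries, with log2 fold changes of 0.63 ± 0.43 in males and -0.15 ± 0.40 in females (95% interval in males -0.27 to 1.53). The edgeR adjusted p of these 3 kinases lay between 0.401 and 0.883 in both sexes.

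**Figure D3:**
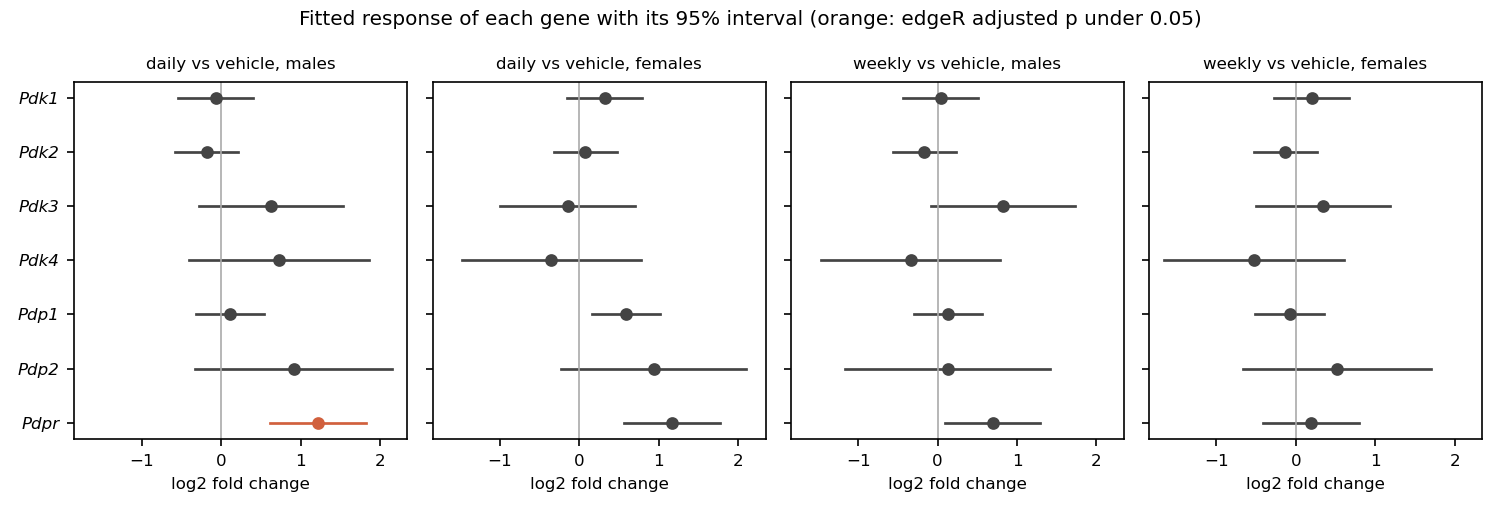
Each panel gives 1 comparison with vehicle, with the log2 fold change on the x axis and the 7 genes on the y axis. Points are edgeR estimates and lines their 95% intervals. Pdpr in daily males, at 1.21, is the 1 estimate in orange, with an adjusted p under 0.05.

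The make-up of the kinase transcripts was described as the share of each kinase in the summed CPM per kilobase of Pdk1 to Pdk4 within a library, which does not depend on the scaling between libraries. Pdk4 took 63.4%, 72.2% and 74.7% in vehicle males and 81.9%, 80.7% and 81.9% in daily males. The daily libraries lay close together and above every vehicle library. The mean share was 70.1% ± 5.94 (SD, n = 3) in vehicle males, 65.6% ± 9.22 in weekly males and 81.5% ± 0.68 in daily males. Pdk2 took most of the rest, 28.5% ± 5.85 in vehicle males, 32.6% ± 8.88 in weekly males and 17.5% ± 0.62 in daily males. In females the Pdk4 share was 84.0%, 80.1% and 55.7% with vehicle, 75.1%, 55.8% and 77.0% with weekly prednisone and 73.4%, 78.8% and 59.6% with daily prednisone. Each female group held 1 library below 60%, and the 3 groups overlapped. These low libraries, vehicle replicate 3, weekly replicate 2 and daily replicate 3, carry the same number in their column headers, which the labels do not explain. Among males, the vehicle library with that number had the middle share and the daily one the lowest. Whether the number stands for a shared factor was not tested. Pdk1 reached at most 2.32% and Pdk3 at most 0.357% in any library. No test was made on these shares, which are scores over the chosen genes.

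**Figure D4:**
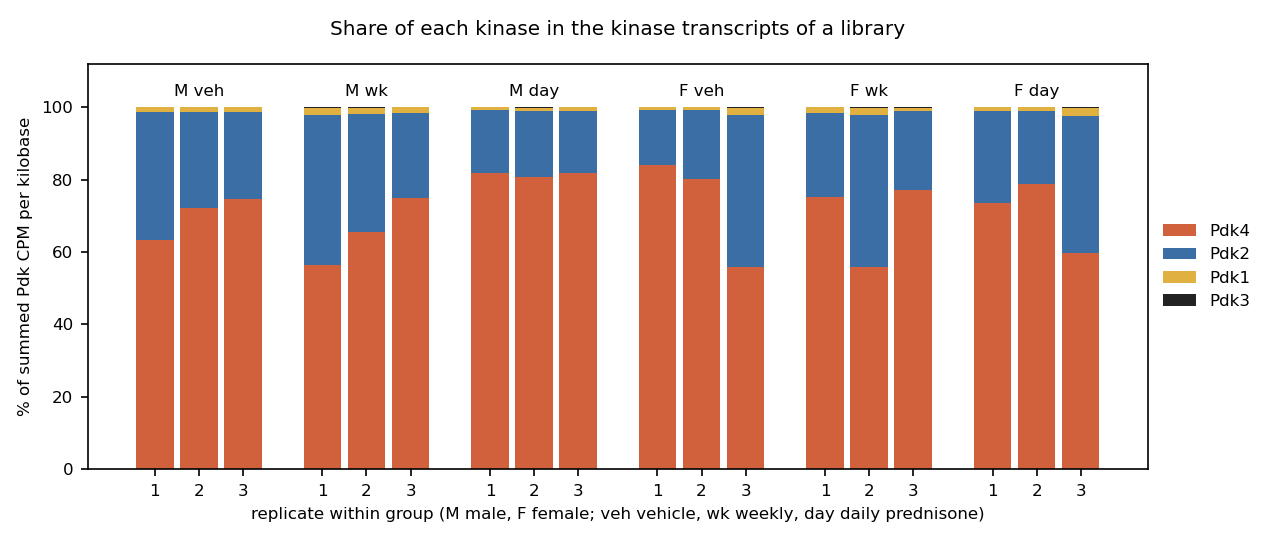
Stacked bars give the percent of each kinase in the summed kinase CPM per kilobase of 1 library, with the replicates of the 6 groups along the x axis. The Pdk4 segment reached 80.7% to 81.9% in the 3 daily males and varied from 55.7% to 84.0% among the other libraries.

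Set against the phosphatase catalytic subunits, kinase transcripts were more abundant in every library. The log2 ratio of summed kinases to summed Pdp1 and Pdp2, per kilobase, averaged 6.06 ± 0.19 (SD, n = 3) in vehicle males, 5.60 ± 0.50 in weekly males and 6.34 ± 0.17 in daily males. In females it averaged 6.57 ± 0.85 with vehicle, 6.15 ± 0.29 with weekly prednisone and 5.74 ± 0.56 with daily prednisone. The daily mean was thus above the vehicle mean in males and below it in females, with group ranges that overlapped in both (5.88 to 6.26 and 6.18 to 6.52 in males, 5.60 to 7.17 and 5.09 to 6.06 in females). The ratio of the regulatory subunit Pdpr to Pdp1, per kilobase, was 0.639 to 0.900 in vehicle males, 1.03 to 1.36 in weekly males and 1.25 to 2.09 in daily males. In females it was 0.554 to 0.979 with vehicle, 0.729 to 1.12 with weekly prednisone and 0.931 to 1.37 with daily prednisone. The weekly and daily males lay above every vehicle male, whereas the female groups overlapped. The sex difference of this ratio was not tested.

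With weekly prednisone no member was called in either sex. In males edgeR called 0% of genes (777 at an unadjusted p under 0.05, 1 by DESeq2, 0 by limma-voom), in females 0% (1083, 152 and 0), and over both sexes 0% (1492 at an unadjusted p under 0.05, 183 by DESeq2). Pdpr stood at 32.2, 38.4 and 29.97 CPM in weekly males, above all 3 vehicle males, with a log2 fold change of 0.69 ± 0.28 (95% interval 0.09 to 1.29, edgeR adjusted p = 0.849). In weekly females it was 26.2, 10.4 and 19.8 CPM, on both sides of the vehicle libraries, with a log2 fold change of 0.19 ± 0.29 (edgeR adjusted p = 0.972). The sex difference of the weekly response was called for no gene (0% of genes, 357 at an unadjusted p under 0.05, 0 by DESeq2).

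Among the kinases, Pdk4 and Pdk3 gave wide intervals around the weekly differences, and Pdk1 and Pdk2 gave narrower ones. Pdk4 was 468, 715 and 1160 CPM in weekly males, with a log2 fold change of -0.34 ± 0.53, and 1434, 390 and 1343 CPM in weekly females, with -0.53 ± 0.53. The weekly libraries overlapped the vehicle libraries in each sex, and the 95% intervals reached from -1.47 to 0.79 in males and from -1.66 to 0.60 in females. Pdk3 was 1.495, 1.63 and 1.19 CPM in weekly males against 0.790, 0.785 and 0.833 in vehicle males, without overlap, and its log2 fold change was 0.82 ± 0.43 (edgeR adjusted p = 0.849). Pdpr and Pdk3 were the 2 members whose weekly male libraries all lay above the vehicle ones, beside 7.76% of genes, and no member did so in females, beside 4.94% of genes. The weekly log2 fold changes of Pdk1, Pdk2 and Pdp1 lay between -0.17 and 0.20, and those of Pdp2 were 0.13 ± 0.61 in males and 0.52 ± 0.56 in females. In weekly females, Pdp2 in replicate 3 reached 10.5 CPM against 2.75 and 2.30 in the other two libraries.

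Daily was then compared with weekly prednisone. Over both sexes Pdpr was higher with daily prednisone by 0.75 ± 0.20 on the log2 scale (95% interval 0.33 to 1.17, edgeR adjusted p = 0.0314), the 1 of 7 members called beside 8.17% of genes. That call was lost without any 1 of male weekly replicate 1, male weekly replicate 3, male daily replicate 3, female daily replicate 1 or female daily replicate 3 (adjusted p from 0.0556 to 0.0682), and also in a fit of the groups compared alone (0.0822) and with the length and GC trend removed (0.109). Pdpr was higher in every daily library than in every weekly library of the same sex, with log2 fold changes of 0.52 ± 0.28 in males and 0.98 ± 0.28 in females (edgeR adjusted p = 0.447 and 0.102). Within a sex edgeR called 0% of genes, in males with 1829 at an unadjusted p under 0.05 (225 by DESeq2, 0 by limma-voom) and in females with 2401 (546 by DESeq2, 2 by limma-voom, 1 with the replicate block). DESeq2 called Pdpr in females, with an adjusted p of 0.0293. Pdp1 was higher in daily than in weekly females by 0.66 ± 0.20 (edgeR adjusted p = 0.113). Female weekly replicate 1, the library rich in slow-fiber markers, also held the highest Pdp1 and Pdpr of the weekly females. Leaving it out therefore widened both differences by construction, to 1.01 for Pdp1 and 1.29 for Pdpr. Both genes were called between daily and weekly females in that fit. Whether the slow-fiber markers had a part in it was not tested. That fit called 312 genes between daily and weekly females, where the fit of all libraries called 0. Pdk4 in daily males was above all 3 weekly males, with a log2 fold change of 1.07 ± 0.54 (95% interval -0.07 to 2.21, edgeR adjusted p = 0.406), and over both sexes the difference was 0.62 ± 0.38 (adjusted p = 0.337). In males Pdk4, Pdp2 and Pdpr, and in females Pdp1 and Pdpr, lay above every weekly library in every daily one, as did 11.9% and 9.83% of tested genes. The comparisons of daily with vehicle and of daily with weekly prednisone share the daily libraries.

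Between vehicle females and vehicle males, no member was called where 0.765% of genes were, with edgeR adjusted p from 0.616 for Pdp1 to 0.96 for Pdk2. Vehicle females held 1521 ± 887 CPM of Pdk4 (SD, n = 3) and vehicle males 988 ± 134, a difference within the spread of the females. Pdpr averaged 20.7 ± 2.76 CPM in vehicle males and 16.6 ± 2.40 in vehicle females.

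Around these enzymes, 1 of 7 genes for the complex and for pyruvate entry was called, and it fell. For scale, edgeR called 6.46% of all tested genes in daily males and 15% over both sexes. Between daily and weekly prednisone over both sexes it called 8.17%. The calls in these lists were not followed through the alternative fits, which were read for the 7 members. Mpc2, a subunit of the mitochondrial pyruvate carrier, went from 188, 170 and 185 CPM in vehicle males to 114, 91.2 and 119 CPM in daily males (log2 fold change -0.75 ± 0.21, edgeR adjusted p = 0.0413). It was also lower over both sexes (-0.52 ± 0.15, adjusted p = 0.0245) and lower than with weekly prednisone (-0.53 ± 0.15, adjusted p = 0.0343). The kinase target Pdha1 stood at 415 ± 26.1 CPM in vehicle males and 439 ± 85.9 in daily males, and at 323 ± 34.2 in vehicle females and 408 ± 66.7 in daily females (SD, n = 3), with log2 fold changes of 0.08 ± 0.23 and 0.34 ± 0.23. In daily males 2 of the 7 were higher and 5 lower (median -0.21, against 0.05 over all tested genes), and in daily females 6 were higher and 1 lower (median 0.12, against 0.01). Of the 4 genes that make the lipoyl group carried by Dlat, Nfu1, an iron-sulfur cluster carrier, fell in daily males (-0.52 ± 0.14, adjusted p = 0.0368) and over both sexes (-0.40 ± 0.10, adjusted p = 0.0138). Of 5 genes for other fates of pyruvate, none was called against vehicle. Gpt2, the mitochondrial alanine aminotransferase, was higher with daily than with weekly prednisone over both sexes (0.38 ± 0.11, edgeR adjusted p = 0.0431). Ldha, the muscle lactate dehydrogenase, averaged 3304 ± 286 CPM in vehicle males and 2283 ± 197 in daily males (-0.53 ± 0.19, adjusted p = 0.0998). The related kinase and phosphatase of the branched-chain complex, Bckdk and Ppm1k, were not called in any comparison with vehicle.

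None of the 11 genes listed as regulators of the kinases was called with daily or weekly prednisone. The glucocorticoid receptor gene Nr3c1 averaged 65.4 ± 9.46 CPM in vehicle males and 77.0 ± 6.23 in daily males (log2 fold change 0.23 ± 0.13). Foxo1, Foxo3 and Foxo4, forkhead factors known to act on Pdk4, had log2 fold changes between -0.01 and 0.33 in daily mice of either sex. Over both sexes 10 of the 11 were higher with daily prednisone, with a median of 0.22 against 0.02 over all tested genes. Of 10 genes known to respond to fatty acids, as Pdk4 does, 2 rose with daily prednisone over both sexes, where 15% of all tested genes were called. They were Angptl4, an inhibitor of lipoprotein lipase that fat cells also make (1.75 ± 0.48, edgeR adjusted p = 0.0241), and Cpt1b, the muscle form of the enzyme that lets long-chain fatty acids into mitochondria (0.72 ± 0.22, adjusted p = 0.0355). Cpt1b went from 14.4 ± 3.78 to 22.1 ± 2.71 CPM in males and from 13.4 ± 2.15 to 23.8 ± 3.28 CPM in females (SD, n = 3). The list's median was 0.48 over both sexes with daily prednisone and 0.23 with weekly prednisone, where none was called. Among 10 glucocorticoid receptor targets, 2 were called with daily prednisone over both sexes, again beside 15% of all tested genes. Zbtb16 (0.56 ± 0.15, edgeR adjusted p = 0.019) and Klf9 (0.61 ± 0.13, adjusted p = 0.00565) rose, and the list's median was 0.19. Between daily and weekly prednisone over both sexes, 10 of 10 targets were higher with daily prednisone and 2 were called, beside 8.17% of tested genes. Fkbp5 was among the 2 (1.03 ± 0.30, edgeR adjusted p = 0.046). Against vehicle, no target was called with weekly prednisone.

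**Figure D5:**
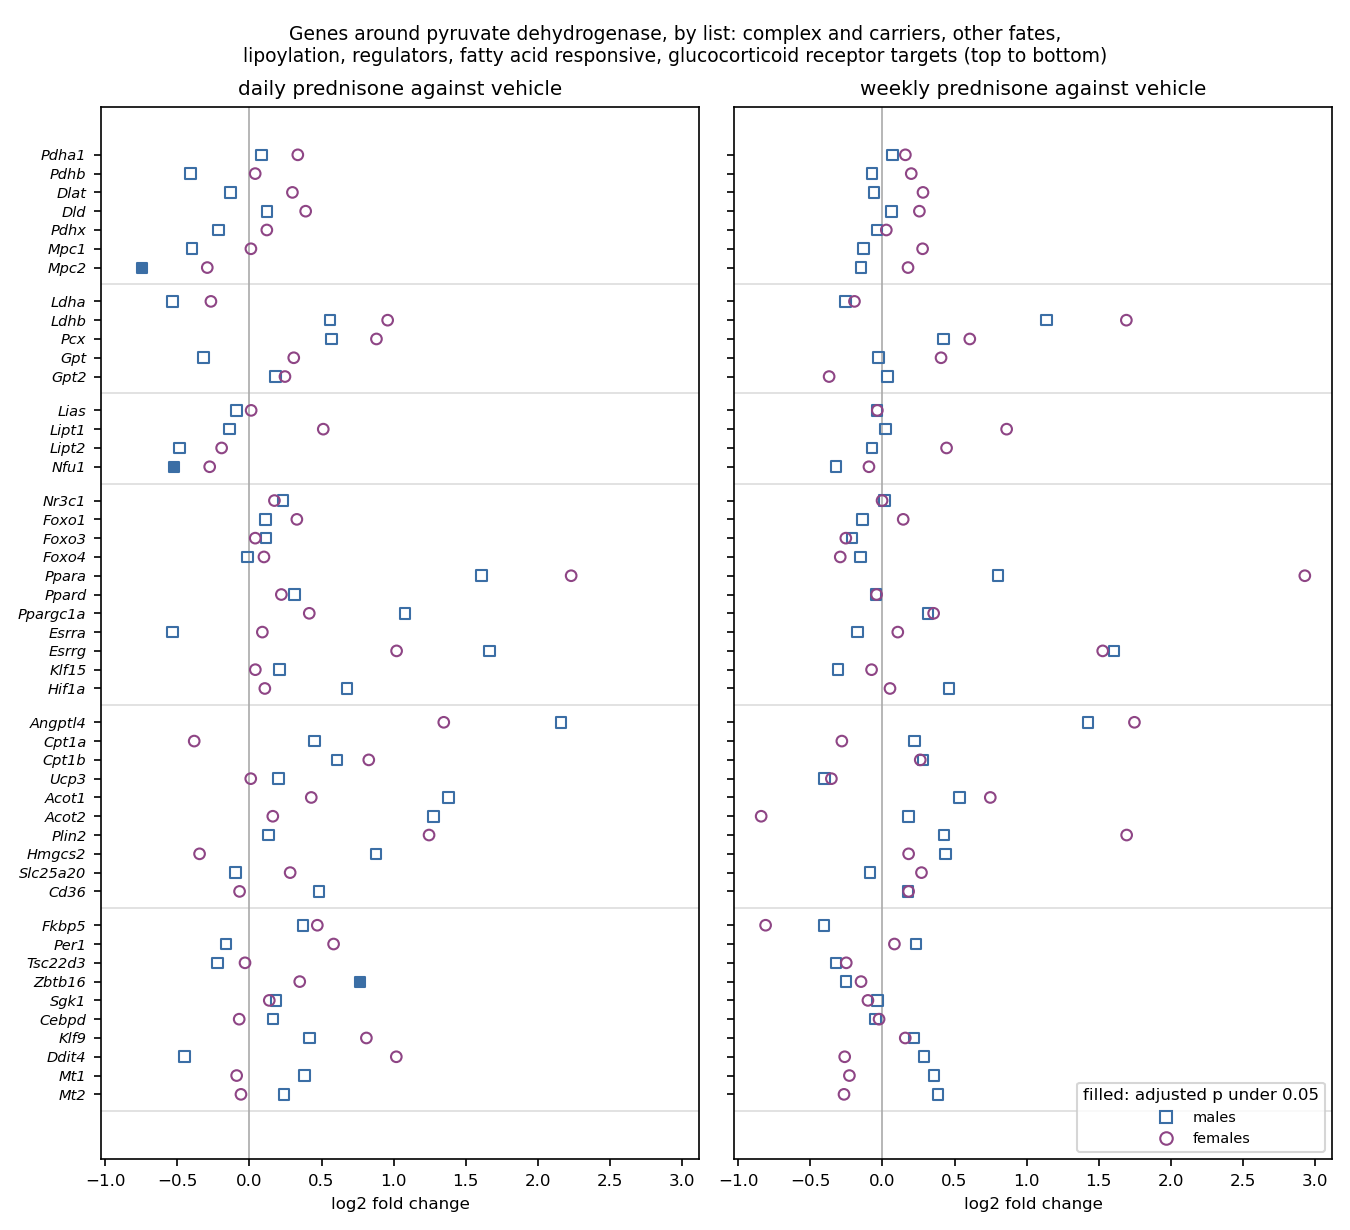
The panels plot log2 fold changes against vehicle for daily (left) and weekly (right) prednisone, with squares for males and circles for females, and genes on the y axis grouped by list. Filled symbols have an edgeR adjusted p under 0.05, and they are Mpc2, Nfu1 and Zbtb16 in daily males, at -0.75, -0.52 and 0.77.

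The genes whose levels followed each member most closely were found by Pearson's r of log2 CPM over the 18 libraries, which share treatment groups, depth and make-up, so that r is a description. Pdpr was followed most closely by Trip12, a ubiquitin ligase (r = 0.933), Pptc7, a mitochondrial phosphatase (0.93), Cnot1, the scaffold of the deadenylation complex (0.928), Lig3, a DNA ligase (0.921), and Fermt2, an integrin adaptor (0.918). After group means were taken out, these r fell to between 0.697 and 0.871. For Pdk4 the closest were Retreg1 (0.872), Alpk2 (0.862), Habp2 (0.85), Ssh2 (0.845) and Osbpl1a (0.837), with 0.838 to 0.895 after group means were taken out. Pdk2 was followed most closely by Cdk16 (0.933) and Gsk3a (0.93), Pdk1 by Mavs (0.921) and Coq8a (0.916), Pdp1 by Myo5c (0.892) and Usp15 (0.88), followed by the muscle hexokinase Hk2 (0.875), Pdp2 by Il6ra (0.868) and Cpsf1 (0.859), and Pdk3 by Gpr37l1 (0.85) and Maged1 (0.842). Among the members themselves, the highest r was between Pdp1 and Pdpr (0.749), followed by Pdk1 and Pdk2 (0.692), and the lowest was between Pdk3 and Pdk4 (-0.588). Pdpr and Pdk4 had an r of 0.362.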

How the data were processed

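The authors counted polyA RNA reads per gene. Per the labels, TopHat2 2.1.0, Bowtie2 2.2.6 and HTSeq were used, with mm10 and mm9 named as builds, and the paper names mm10. The deposited values are whole-number counts with no normalization. The strand setting and annotation release are not given in the sources used here. The deposited gene length exceeded the gene's own span for 1982 genes and was not used. Levels per kilobase use merged GENCODE M21 exons within the deposited span, and 33497 of 43430 genes had the same start and end there. Of the members, Pdp2 alone did not. Its deposited span held 3485 merged exon bases, where its longest coding transcript has 5692, so its level per kilobase describes only that span. A symbol was found for 42462 identifiers.

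Counts were analyzed in R 4.3.3 with edgeR 4.0.16 (filterByExpr, minimum count 10, TMM factors, robust quasi-likelihood fit of 6 group means over 18 libraries). Benjamini-Hochberg adjustment ran over 13596 genes, and intervals use t quantiles at the 95% level. The biological coefficient of variation was 0.224. The study's methods name no test for counts. The main edgeR fit was also run on simulated counts, with the same spread for all genes and changes in daily males alone. The alternatives were not run on them. Alternatives were DESeq2 1.42.0, limma-voom (limma 3.58.1), other scalings and filters, an adipocyte covariate (mean log2 CPM of 10 markers, prior count 2), a length and GC trend (splines of 5 degrees of freedom, values for 99.51% of genes), the replicate block and leaving out each library. The coding-transcript length was added after the data were seen. Replicate numbers come from the titles, and the column headers carry numbers that differ from them in part. Libraries with the same title number deviated together in weekly and daily females alone (r from 0.439 to 0.501). No 2 libraries of a group agreed within sampling noise. The members and gene lists were chosen with earlier results of these data known. Named genes are the members, list genes that passed the test or come first in their list, and the genes most like a member. Shares and ratios of members were not tested. The result of 1 marker list is not reported here.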

Additional observations from a re-analysis of the deposited data

How the results depend on the processing

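Of 7 members, the number called with daily prednisone in males was 1 and became 0 with the adipocyte score as a covariate or the length and GC trend removed, 2 in a fit of the groups compared alone (Pdk4 and Pdpr), and 0 to 1 when 1 library was left out. In daily females it was 0, and 1 by DESeq2. Over both sexes it was 1, became 0 with the adipocyte covariate and 2 in a fit of the groups compared alone (Pdp1 and Pdpr), and stayed at 1 whichever library was left out. Between daily and weekly prednisone it went from 0 to 1 by DESeq2 in females, with 0 to 2 when 1 library was left out, and over both sexes from 1 to 0 with the length and GC trend removed or in a fit of the groups compared alone, with 0 to 2 when 1 library was left out (2 without female weekly replicate 1 or 3). The cause was not tested. The other counts of members called were the same under the alternatives run. The Pdk4 share of kinase transcripts moved to 62.7% in vehicle males and 75.9% in daily males with coding-transcript lengths, by construction.

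Changes of sign fell on values that were not called. With the adipocyte covariate the log2 fold change became -0.0856 for Pdp1 in daily males, -0.0386 for Pdk1 in daily females, -0.23, -0.0608 and -0.40 for Pdk1, Pdp1 and Pdp2 in weekly males, and -0.19, -0.31 and -0.20 for Pdk1, Pdp2 and Pdpr in weekly females. With the length and GC trend removed it became -0.11 for Pdp1 in daily males and -0.0572 for Pdk1 in weekly males, and the sex difference of the daily response of Pdpr became 0.021. Leaving out 1 library gave -0.20 to 0.0532 for Pdk1 in daily males, -0.12 to 0.18 for Pdk2 and -0.45 to 0.38 for Pdk3 in daily females, -0.0769 to 0.14 for Pdk1 and -0.17 to 0.84 for Pdp2 in weekly males, -0.15 to 0.41 for Pdk1, -0.43 to 0.0954 for Pdp1, -0.51 to 1.02 for Pdp2 and -0.13 to 0.45 for Pdpr in weekly females, and -0.26 to 0.20 for the sex difference of the daily response of Pdpr.

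Over all genes, the number called with daily prednisone in males was 878, from 24 with the adipocyte covariate and 87 with the length and GC trend removed to 1530 in a fit of the groups compared alone, and from 92 to 1305 when 1 library was left out. In daily females it was 52, from 0 to 530 (DESeq2) and from 0 to 299 when 1 library was left out. Over both sexes it was 2033, from 13 to 2386. With weekly prednisone it was 0 in females and over both sexes, and 253 and 174 without female weekly replicate 2. Between daily and weekly prednisone over both sexes it was 1111, from 101 to 1434. Title replicate numbers shared between groups came with correlations of -0.318 to 0.501 between same-numbered libraries. No pair of groups compared with vehicle had all 3 above 0.1, so there the libraries were taken to share only a title number. Weekly and daily females did (0.439 to 0.501), although the labels name no factor that a shared number stands for. The numbers in the column headers match partly different libraries across groups. They were used neither in these correlations nor in the replicate block, so whether they stand for a shared factor was not tested. With the replicate block their differences were 0.99 for Pdpr and 0.70 for Pdp1 (edgeR adjusted p = 0.121 and 0.0904). With the replicate block, Pdpr differed by 1.20 on the log2 scale in daily males (edgeR adjusted p = 0.0291) and 1.18 over both sexes (0.00326), the number called in daily females went from 52 to 8, and no member's call changed. Depth limits Pdk3 and Pdp2, with as few as 8 and 13 counts in a library.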
